A study of Mus musculus with 8 samples.

Results

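Solute carriers are membrane proteins that move small molecules and ions across the plasma membrane or into vesicles, mostly by coupling the cargo to a gradient or by exchanging it for another solute. In the retina they end the action of glutamate, GABA and glycine, load these transmitters into synaptic vesicles, bring in glucose, pass lactate between cells, and hold pH and calcium in photoreceptors. The members described here are all genes of the authors' deposited comparison whose symbol starts with Slc or Slco followed by a number. They number 36, out of 1802 genes that the authors' deposited table lists. By the family number in the symbol, 15 belong to families of amino acid and neurotransmitter transporters, 5 to those of glucose and lactate, 5 to those of ion exchange and 11 to other families.

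Cells of dissociated mouse retina were profiled by single-cell RNA sequencing from the 3′ end of transcripts, in 3 control libraries (WT) and 5 libraries with the genotype label ABCA1KO (KO). ABCA1 is a transporter of the ATP-binding cassette class, outside the solute carrier families, that passes cholesterol and phospholipid to apolipoproteins. The labels give no strain, age or treatment, and do not say in which cells the gene was deleted, by what allele, or whether each library came from 1 animal. The comparison addresses how gene expression in the retina differs between ABCA1 knockout and control, and it was read from 1 table of the authors, which pools all cells of each genotype.

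The table lists for each gene a difference of log values, KO minus WT, read here as natural log and called the log difference below, the share of cells above 0 in each genotype and an adjusted p. It holds no value per library, no error and no number of cells, so the spread between libraries and the depth are unknown here. The p-values were adjusted over 2000 features and the title of the file hints at integration, so the values were probably adjusted across batches before they were compared. The log difference is therefore not read as a fold change, and a share of cells above 0 is not read as the share of cells in which a transcript was detected. Sag, the rod arrestin gene, was above 0 in 98.7% of WT cells and 98.8% of KO cells in the authors' deposited table. Abca1 itself was listed there as higher, not lower, in KO, at 0.0294 with 30.5% of WT cells and 48.7% of KO cells above 0, so the genotype labels were not checked by it and KO means the libraries labelled KO. Because cells were pooled, a different mix of cell types and a different level per cell cannot be told apart.

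Of 385 protein-coding solute carrier genes annotated for the mouse, 36 were listed (9.35%), against 1726 of 21924 protein-coding genes of any kind (7.87%). Every gene listed in the authors' deposited table had a raw p under 0.01 (the largest was 0.00938), so being listed already marks a gene as different. The p-values were adjusted over 2000 features, of which 198 were not listed. The shares of 9.35% and 7.87% therefore depend largely on which features were compared. All 36 members were called at an adjusted p under 0.05, where the background in the authors' deposited table was 93.2% of listed genes. The other 349 annotated solute carrier genes were not listed, which does not show that they were unchanged. At most 198 of them can have been among the features compared. A gene called not listed here was thus either not compared or did not pass the limit on p. Among families with no listed gene are the Slc25 mitochondrial carriers and the Slc12 cation chloride cotransporters.

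Most listed solute carrier genes were higher in KO, at a share close to that of the whole table. In the authors' deposited table, 27 of the 36 members were called higher (75%, background 69.1%) and 9 lower (25%, background 24.1%). Their median log difference was 0.0130, against 0.0100 over all 1802 listed genes of the authors' deposited table. Since the whole table is shifted upward, each member was also read against the median of all listed genes and against the median of genes with a similar WT share of cells above 0. Under all 3 zero points 16 members (44.4%) lay on the higher side, 9 (25%) on the lower side, and 11 (30.6%) changed side. Over all listed genes of the authors' deposited table these shares were 44.2%, 25.7% and 30.0%, so the solute carriers as a set were close to the background. Read against the median of all listed genes 20 members were called above it, and read within bins of the WT share 19 were (background 45.9% of listed genes in both cases).

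**Figure D1:**
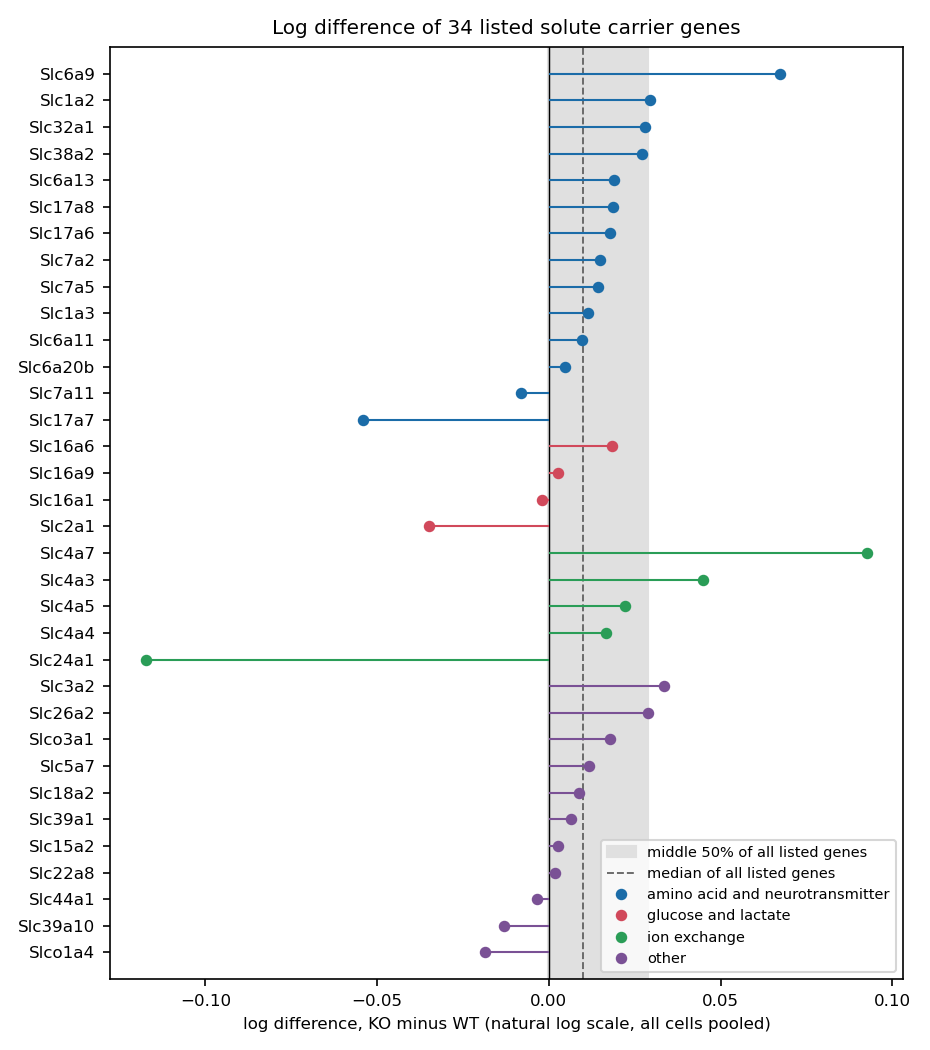
Log difference (KO minus WT, natural log scale, x axis) of the 34 solute carrier genes described here (y axis), coloured by group, as given in the authors' deposited table. The grey band holds the middle 50% of all 1802 listed genes and the dashed line is their median of 0.0100. Slc24a1 (-0.117) and Slc4a7 (0.0926) lie far from 0 on either side.

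The 4 transporters of the inhibitory transmitters GABA and glycine described here were called higher in KO, as were 69.1% of all listed genes. Slc6a11 lay just below the median of all listed genes and Slc6a13 below genes of a similar WT share. Slc6a9 and Slc32a1 stayed higher under all 3 zero points. Slc6a9 encodes the glycine transporter GlyT1, found on glycinergic amacrine cells. It stood at 0.0674, rank 105 of 1802 genes, and had an adjusted p of 2.49e-216 in the authors' deposited table. Slc6a9 was above 0 in 44.6% of WT cells and 72.5% of KO cells in the authors' deposited table. Of these 4, Slc6a9 alone lay above the upper quartile of all listed genes, which was 0.0289 in the authors' deposited table.

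The values of Slc32a1, Slc6a13 and Slc6a11 were smaller. Slc32a1, the vesicular transporter that loads both GABA and glycine, stood at 0.0280 in the authors' deposited table. Slc6a13, which encodes the GABA transporter GAT-2, had 0.0189 in the authors' deposited table, and lay at -0.00485 when read against genes of a similar WT share. Slc6a11, which encodes the largely glial GABA transporter GAT-3, had 0.00976 in the authors' deposited table, just under the median gene.

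The listed genes of GABA synthesis and breakdown and the other listed amacrine markers were called higher as well, though not all lay clearly above the median gene. Of 9 fixed genes of glutamate and GABA metabolism 3 were listed, and all 3 had higher values in KO past the threshold of the authors' deposited table. Gad1, which makes GABA from glutamate, had 0.109, and Abat, which breaks GABA down, 0.0123 in the authors' deposited table. Read against the median gene, Gad1 was at 0.0993 and Abat at 0.00223, close to 0. Of the fixed amacrine markers that are not solute carriers, 3 of 8 were listed and all 3 were called higher (background 69.1%), with a median of 0.0797 in the authors' deposited table. They were Gad1, already counted above, Pax6 at 0.0797 and C1ql2, below the median gene, at 0.00211. The part of a different share of amacrine cells in the values of Slc6a9 and Slc32a1 was not tested.

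Among glutamate transporters, 1 of the 3 vesicular forms was called lower, and the other listed forms were called higher. The transporters that load glutamate into synaptic vesicles are encoded by Slc17a7 (VGLUT1), used by photoreceptors and bipolar cells, Slc17a6 (VGLUT2), used by ganglion cells, and Slc17a8 (VGLUT3), found in a type of amacrine cell. Slc17a7 was called lower, at -0.0540 with an adjusted p of 2.07e-06 in the authors' deposited table. The other 2 were called higher, Slc17a8 at 0.0187 and Slc17a6 at 0.0177 in the authors' deposited table. The directions were the same against the median gene, where Slc17a7 was at -0.0640, Slc17a8 at 0.00863 and Slc17a6 at 0.00761. Against genes of a similar WT share Slc17a6 was at 0.000464, close to 0.

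The shares of cells above 0 followed another order. Slc17a6 was above 0 in 48.9% of WT cells and 81.0% of KO cells in the authors' deposited table, the highest KO share of the 36 members. Slc17a7 also had a larger KO share, 71.1% against 60.0% in WT, in the authors' deposited table, although its log difference was negative. Slc17a8 had nearly the same share in both, 28.3% in WT and 29.5% in KO, and its adjusted p was listed as 0 in the authors' deposited table. Of the listed ganglion cell markers outside the solute carriers, 2 had higher (background 69.1%) and 2 lower calls (background 24.1%). Among them were Rbpms at 0.0249 and Nefh at -0.0240 in the authors' deposited table.

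Transporters that clear glutamate from the synapse were called higher by small amounts. Slc1a2, which encodes GLT-1, stood at 0.0293 in the authors' deposited table, with shares of 41.0% in WT and 62.8% in KO. That log difference lay narrowly above the upper quartile of all listed genes, 0.0289. Slc1a3, which encodes GLAST, the main glutamate transporter of Müller glia, had 0.0113 in the authors' deposited table, close to the median gene. Its shares were 31.4% in WT and 54.4% in KO in the authors' deposited table. Of the other listed Müller glia markers 7 were called higher (background 69.1%) and 2 lower (background 24.1%), with a median of 0.0231 in the authors' deposited table. Glul, the glutamine synthetase that converts the glutamate taken up, was not listed. The 4 other listed astrocyte markers had 3 higher calls and 1 lower one, against the same background, with a median of 0.0114 in the authors' deposited table. Of 7 fixed genes of potassium and water channels, 4 were listed, and the authors' deposited table called 2 of them in each direction. Aqp4, the glial water channel, was called lower at -0.0288 and Kcnj10, the glial potassium channel, higher at 0.0231 in the authors' deposited table. Against genes of a similar WT share Aqp4 was at -0.0391 and Kcnj10 at -0.000612, close to 0.

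Amino acid carriers included both partners of one heterodimer and the alternative partner in the other direction. Slc3a2 encodes the heavy chain CD98, which binds light chains of the Slc7 family and carries them to the membrane. Slc3a2 was called higher at 0.0334 in the authors' deposited table and was the highest of the 11 members of other families. Slc7a5, which encodes the light chain LAT1 for large neutral amino acids, was called higher at 0.0143 in the authors' deposited table. Slc7a11, which encodes the light chain xCT of the cystine and glutamate exchanger, was called lower at -0.00815 in the authors' deposited table. Its adjusted p of 0.000222 was the largest among the 36 members of the authors' deposited table. Slc7a5 lay at -0.00192 against genes of a similar WT share, so its direction depends on the zero point, whereas Slc3a2 stayed higher and Slc7a11 lower under all 3.

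The remaining carriers of this group were called higher. Slc38a2, which encodes the sodium-coupled neutral amino acid transporter SNAT2, had 0.0271 in the authors' deposited table. Slc7a2, for cationic amino acids, had 0.0149 in the authors' deposited table and -0.00292 against genes of a similar WT share. Slc6a20b, of the Slc6 family, had 0.00482 in the authors' deposited table and lay below the median gene at -0.00522. The share of Slc6a20b hardly differed, at 36.4% in WT and 37.4% in KO, in the authors' deposited table. Over the whole group of 15 members, 13 were called higher (86.7%, background 69.1%) and 2 lower (13.3%, background 24.1%), with a median of 0.0177 in the authors' deposited table. Against the median gene 11 lay above it (73.3%, background 45.9%), and against genes of a similar WT share 9 did (60%, background 45.9%).

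Glucose and lactate families were the group with more lower than higher calls. Of 5 members 2 were called higher (40%, background 69.1%) and 3 lower (60%, background 24.1%), with a median of -0.00200 in the authors' deposited table. Against the median gene 1 of the 5 lay above it (20%, background 45.9%). Against genes of a similar WT share 2 did (40%, background 45.9%), a count near the background. Those 2, Slc16a6 at 0.00111 and Slc16a9 at 3.20e-05, were close to 0, and the median of the group was -0.0199 there. Slc2a1 encodes GLUT1, through which glucose enters the retina across the blood vessels and the pigment epithelium. It was the lowest of the 5 at -0.0349 in the authors' deposited table and ranked at 67 from the lowest of 1802 genes. Its share of cells above 0 was nevertheless larger in KO, 64.5% against 41.8% in WT, in the authors' deposited table. With 5 members, 1 gene moves such a count by a large step.

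The Slc16 family is named for monocarboxylates, but its members carry different cargo. Slc16a1 encodes MCT1, which carries lactate, and stood at -0.00200 in the authors' deposited table. It also lay below the median gene and below genes of a similar WT share. Slc16a6 (MCT7) was called higher at 0.0183 in the authors' deposited table and stayed higher under all 3 zero points. Slc16a9 (MCT9) had 0.00253 in the authors' deposited table, which is below the median gene. It was the one member with a smaller share in KO, 14.0% against 15.4% in WT, in the authors' deposited table.

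Of the fixed genes that help lactate carriers to the membrane, both were listed. Bsg, which encodes basigin, the chaperone of MCT1, was called lower at -0.0525, and Emb, which encodes embigin, was called higher at 0.0308 in the authors' deposited table. The enzymes of lactate and pyruvate handling on that list, Ldha and Ldhb among them, were not listed. Slc2a1, Slc16a1, Slco1a4, Slc7a5 and Slc6a13 are also on the fixed list of vascular and pericyte markers. Slc7a5 (0.0143) and Slc6a13 (0.0189) were called higher and the others of these lower in the authors' deposited table. Both higher ones lay below genes of a similar WT share. Of the listed vascular and pericyte markers that are not solute carriers, 4 were called higher (background 69.1%), 3 lower (background 24.1%) and 1 not called. Their median was 0.000901 in the authors' deposited table. Slco1a4, an organic anion transporter of the blood-brain barrier, was called lower at -0.0185 in the authors' deposited table. The tight junction gene Cldn5 missed the threshold at -0.0125 (adjusted p of 0.342 in the authors' deposited table). Rgs5, a pericyte gene, was called lower at -0.0507, and Kdr, an endothelial receptor gene, higher at 0.0300 in the authors' deposited table. The part of vascular cell numbers in the values of Slc2a1 and Slco1a4 was not tested.

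Ion exchange families held the lowest member, and their other 4 members were called higher. Of the 5, 80% were called higher, against a background of 69.1% in the authors' deposited table. Slc24a1 encodes NCKX1, the exchanger that removes calcium from the rod outer segment in return for sodium. The authors' deposited table gave it -0.117, the lowest log difference of the 36 members and rank 16 from the lowest of 1802 genes. Slc24a1 had the highest WT share of the members, 70.7%, and a KO share of 78.2%, with an adjusted p of 5.06e-40, in the authors' deposited table. The 12 other listed rod markers had a median of -0.140 in the authors' deposited table. Of these, 11 were called lower (background 24.1%) and 0 higher (background 69.1%). Slc24a1 thus lay inside the range of the rod markers, from -0.263 for Rp1 to -0.0494 for Pde6b in the authors' deposited table. The part of a different share of rods was not tested.

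Bicarbonate transporters of the Slc4 family hold the pH of cells by moving bicarbonate with sodium or against chloride. Slc4a7, which encodes the sodium bicarbonate cotransporter NBCn1, stood at 0.0926 in the authors' deposited table, rank 52 of 1802 genes. Slc4a7 was above 0 in 43.6% of WT cells and 66.1% of KO cells in the authors' deposited table. Slc4a3, which encodes the chloride and bicarbonate exchanger AE3, had 0.0448 in the authors' deposited table, with shares of 46.7% and 74.1%. Slc4a5 (NBCe2) had 0.0221 and Slc4a4 (NBCe1) 0.0167 in the authors' deposited table. All 4 stayed higher against the median gene and against genes of a similar WT share, where they lay between 0.00921 for Slc4a5 and 0.0689 for Slc4a7.

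Slc4a4 differed from the others in its shares, 15.2% of WT cells and 23.8% of KO cells in the authors' deposited table, and its WT share was the lowest of the 36 members. Slc4a3 is also a marker of horizontal cells. The 4 other listed horizontal cell markers were all called higher (background 69.1%), with a median of 0.0231 in the authors' deposited table. Lhx1 among them, at 0.00534, lay below the median gene and below genes of a similar WT share. Carbonic anhydrases, which make bicarbonate from carbon dioxide, were listed in 4 of 12 cases in the authors' deposited table. Of these, 3 were called higher (background 69.1%) and 0 lower (background 24.1%). Car8 had 0.0280, Car10 0.0216 and Car14 0.00721, and Car3, not called, had 0.00701 in the authors' deposited table. Against the median gene Car8 was at 0.0180 and Car10 at 0.0116, whereas Car14 was at -0.00283 and Car3 at -0.00303. Car8 and Car10 belong to the related proteins without known enzyme activity, whereas Car14 encodes an enzyme on the surface of Müller glia.

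For Slc4a7 and Slc24a1, the members of this group farthest from 0 in each direction, the 250 bases before the RefSeq start are shown (build GRCm38.p6, 5′ to 3′ along each gene). The Slc4a7 window lies at chr14:14718534-14718783 on the plus strand. Its RefSeq start is also the start of a GENCODE transcript, but lies 16505 bases downstream of the outermost GENCODE start of the gene, so this window is inside the gene, outside its annotated exons, and is not the sequence before that outermost start. The Slc24a1 window lies at chr9:64951621-64951870 on the minus strand, upstream of the gene, and its RefSeq start is 13 bases from the GENCODE start. Capitals mark a TATA box (TATAAA) or a GC box (GGGCGG) on either strand.
Slc4a7: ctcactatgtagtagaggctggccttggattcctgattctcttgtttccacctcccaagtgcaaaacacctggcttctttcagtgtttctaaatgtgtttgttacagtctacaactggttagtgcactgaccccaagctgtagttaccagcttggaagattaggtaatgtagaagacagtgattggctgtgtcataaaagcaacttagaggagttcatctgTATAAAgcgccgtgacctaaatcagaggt
Slc24a1: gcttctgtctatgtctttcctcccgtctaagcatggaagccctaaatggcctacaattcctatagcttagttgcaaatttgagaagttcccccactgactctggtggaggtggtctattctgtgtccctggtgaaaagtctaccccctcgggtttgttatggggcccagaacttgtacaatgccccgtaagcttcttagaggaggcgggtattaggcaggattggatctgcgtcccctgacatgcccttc
The Slc4a7 window holds 1 TATA box and 0 GC boxes, and neither motif is in the Slc24a1 window. The TATA letters are in 12.4% and the GC box letters in 32.7% of 32851 windows of this length. G and C made up 43.6% of the Slc4a7 window and 50.8% of the Slc24a1 window, against a median of 52.4% over all windows. The letters TAATCC, bound by the photoreceptor factor Crx, are in 6.25% of all windows and in neither of these. Because one window is at an internal start and the other at the outer start, no difference between the promoters of these genes is read from them.

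The 11 members of other families lay close to the median gene. Of these, 8 were called higher (72.7%, background 69.1%) and 3 lower (27.3%, background 24.1%), with a median of 0.00638 and a range from -0.0185 for Slco1a4 to 0.0334 for Slc3a2 in the authors' deposited table. The median turned to -0.00367 when read against the median gene, since 7 of the 11 lay below it. Slc26a2, a sulfate transporter, was called higher at 0.0289 in the authors' deposited table and stayed so under all 3 zero points. Slco3a1, an organic anion transporter, was called higher at 0.0179 and had the largest gain in share of the 36 members, from 36.9% to 70.0%, in the authors' deposited table.

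Carriers of acetylcholine and monoamine synapses had small values. Slc5a7, the choline transporter of cholinergic amacrine cells, had 0.0118 in the authors' deposited table and lay at -0.00110 against genes of a similar WT share. Slc18a2, which encodes VMAT2 and loads dopamine into vesicles, had 0.00871 in the authors' deposited table, under the median gene. Slc44a1, a choline transporter of many cell types, was called lower at -0.00355 in the authors' deposited table. Dopaminergic and cholinergic amacrine cells are rare in the retina, whereas Slc18a2 was above 0 in 64.7% and Slc5a7 in 52.0% of KO cells in the authors' deposited table.

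Zinc importers went in both directions. Slc39a1 (ZIP1) was called higher at 0.00638 and Slc39a10 (ZIP10) lower at -0.0131 in the authors' deposited table. Slc39a1 lay below the median gene at -0.00367, whereas Slc39a10 was lower under all 3 zero points. Slc15a2, a peptide transporter, had 0.00275 and Slc22a8, an organic anion transporter, 0.00185 in the authors' deposited table. Both turned lower against the median gene and against genes of a similar WT share.

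**Figure D2:**
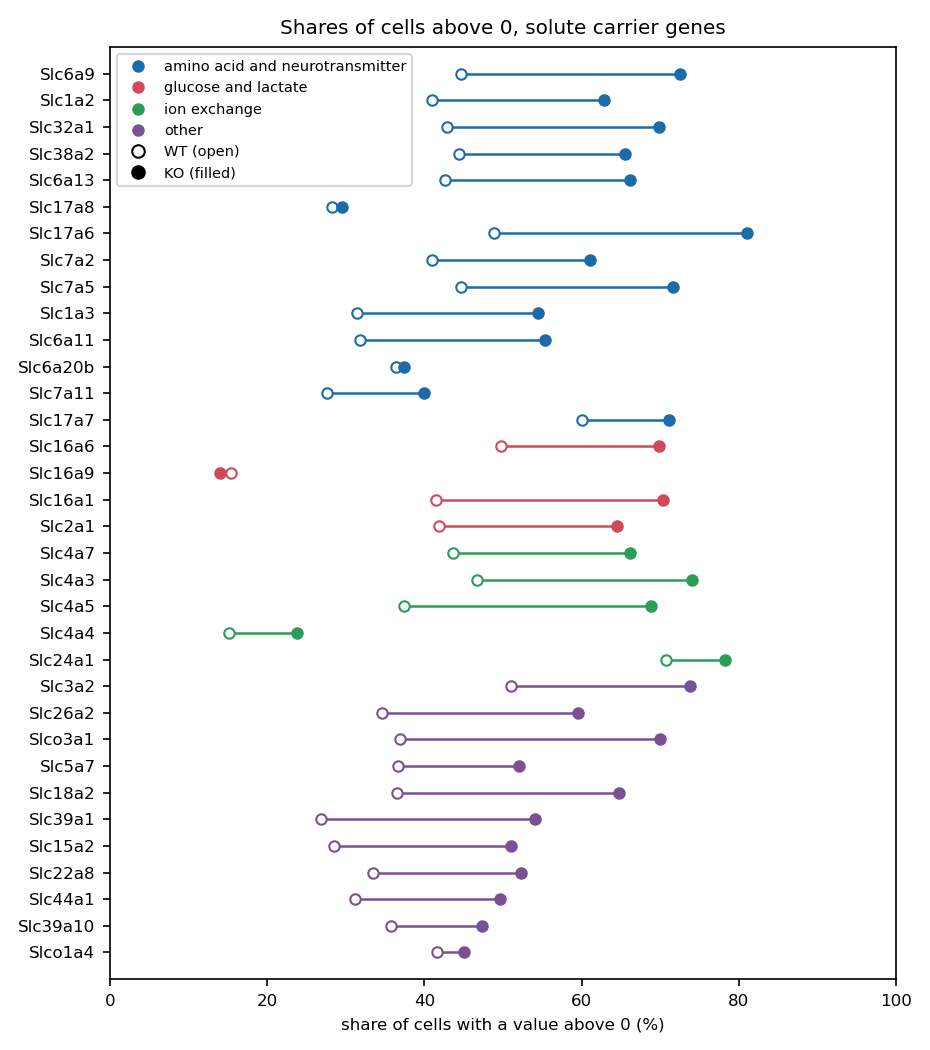
Share of cells with a value above 0 (x axis, %) for the 34 solute carrier genes described here (y axis) in WT (open) and KO (filled), as given in the authors' deposited table. For 33 of them the filled point lies to the right, and for Slc16a9 to the left (14.0% against 15.4%).

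Shares of cells above 0 were larger in KO for nearly all members, as for nearly all genes. This held for 35 of 36 members (97.2%), where the background in the authors' deposited table was 97.9%. The median gain was 22.5 percentage points over the members and 20.8 over all listed genes of the authors' deposited table. All 9 members called lower had a larger share in KO, as did 97.5% of all genes called lower in the authors' deposited table. Share and log difference therefore pointed in opposite directions for these 9. Gains were under 4 points for 3 members with larger shares, namely Slc6a20b (1 point), Slc17a8 (1.2 points) and Slco1a4 (3.5 points) in the authors' deposited table.

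A very small p did not mark a large difference. The adjusted p was listed as 0 for 9 members (25%), against 10.2% of all listed genes of the authors' deposited table. These 9 were Slc4a3, Slc4a4, Slc4a5, Slc7a5, Slc16a9, Slc17a6, Slc17a8, Slc18a2 and Slco3a1. Their log differences ran from 0.00253 for Slc16a9 to 0.0448 for Slc4a3 in the authors' deposited table. Slc24a1, with the lowest log difference of the members, ranked at 1042 by p and Slc4a7 at 1117 in the authors' deposited table. Over all listed genes the median size of the log difference was 0.0101 where the adjusted p was listed as 0 and 0.0161 elsewhere in the authors' deposited table.

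**Figure D3:**
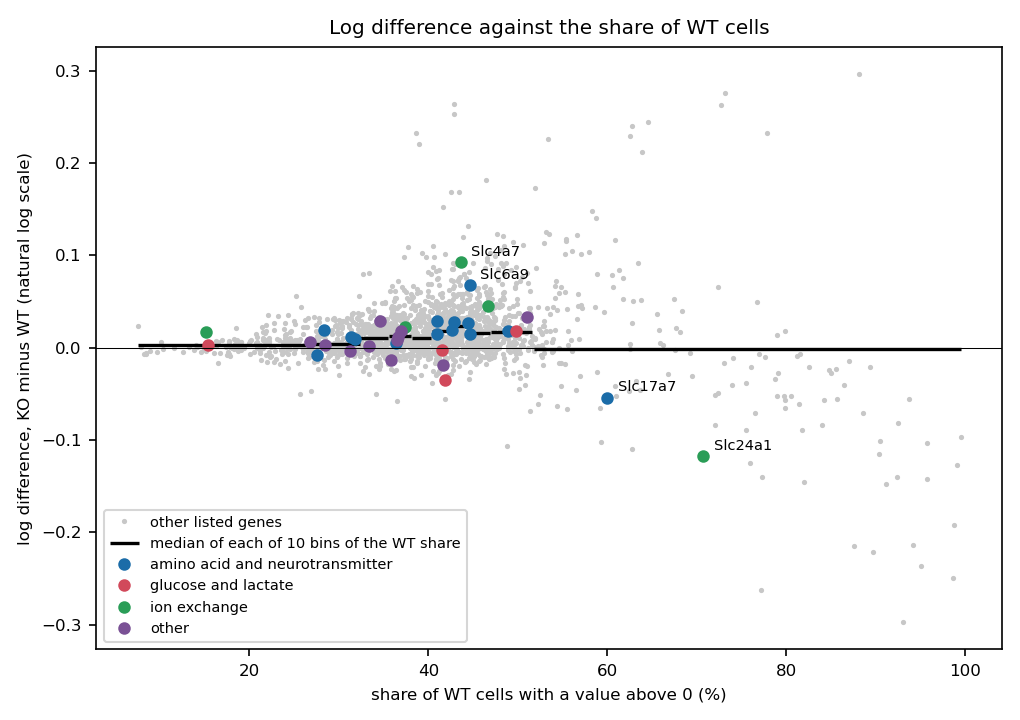
Log difference (y axis, KO minus WT, natural log scale) against the share of WT cells above 0 (x axis, %) for the 34 solute carrier genes described here (coloured) and the other listed genes (grey) of the authors' deposited table. Black lines are the medians of 10 bins of the WT share. Slc17a7 and Slc24a1, at 60.0% and 70.7%, are the members in the top bin.

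The 2 lowest members were also those with the highest WT shares. Slc24a1 and Slc17a7 were the members in the top of 10 bins of the WT share, which spans 51.8% to 99.5% and in which 51.1% of genes had a negative log difference in the authors' deposited table. In the other bins that percentage lay between 14.1% and 33.9% in the authors' deposited table. Against the median of their own bin, Slc24a1 stayed at -0.116 and Slc17a7 at -0.0529. Slc2a1, with a WT share of 41.8%, lay at -0.0527 against its own bin, close to Slc17a7.

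The sodium pump, which makes the sodium gradient that some of these transporters use, was listed with 7 of 10 fixed genes. Of these, 5 had higher (background 69.1%) and 2 lower calls (background 24.1%), with a median of 0.0132 in the authors' deposited table. The beta subunit genes differed in direction, with Atp1b1 at 0.0915, Atp1b3 at 0.0523 and Atp1b2, the form found in photoreceptors and glia, at -0.0635 in the authors' deposited table. Of 15 fixed genes of vesicle filling and release 4 were listed, with 3 higher calls and 1 lower one in the authors' deposited table, against the same background. Cplx3, a complexin of ribbon synapses, led with 0.0888, while Syt1, Syp and Sv2b were within 0.00319 of 0 in the authors' deposited table. Syt1, Syp and Sv2b thus lay below the median gene.

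**Figure D4:**
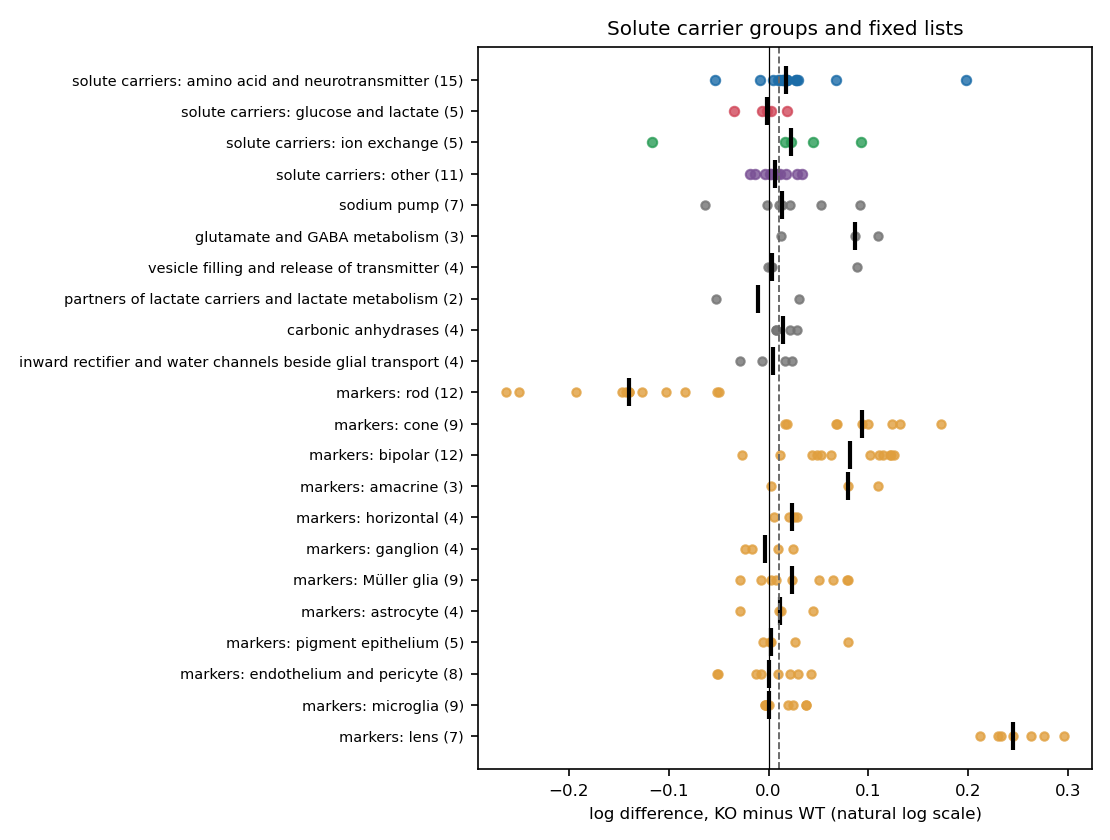
Log difference (x axis, KO minus WT, natural log scale) of each gene of the 4 solute carrier groups, of 6 fixed lists of related genes (grey) and of the cell type marker lists with a listed gene (orange), solute carriers left out of the lists. The number of genes is in parentheses, the black bar is the median and the dashed line the median of all listed genes. Rod markers lie to the left (median -0.140), and cone (0.0940), bipolar (0.0819) and lens genes (0.245) to the right.

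Marker lists that moved farthest were those of rods and of the lens. Lens crystallins had a median of 0.245 over 7 listed genes, 6 called higher (background 69.1%), in the authors' deposited table. Cone markers had a median of 0.0940 and bipolar markers one of 0.0819 in the authors' deposited table. None of the 36 members is among the fixed lens, cone or bipolar markers. Microglia (0.000755) and pigment epithelium markers (0.00247) had medians near 0 in the authors' deposited table, and 0 of the fixed erythrocyte markers were listed.

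All 36 members matched 1 gene of the same symbol in the GRCm38 annotation, on 18 chromosomes, with 5 of them on chromosome 6. Of the last 500 bases of their transcripts, where 3′ reads fall, 35 members shared no stretch of 91 bases with a transcript of another gene. For Slc3a2 0.658% of such stretches were shared. Some members overlap named genes on the opposite strand, among them Slc6a9 with Ccdc24 and B4galt2, Slc16a6 with Amz2 and Arsg, and Slc6a20b with Sacm1l. Whether the authors' counting used the strand is not given in the sources used here.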

How the data were processed

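Retinal cells of 3 WT and 5 KO libraries were captured in droplets, per the labels' protocols. The tools named, without their roles, are Cell Ranger, Seurat 3.1.4 and DESeq2, and the build is GRCm38, per the submitters' processing notes. The sources used here do not give the cell filters, doublet treatment, integration or test. The log difference was read as a natural log from the authors' deposited table, after the convention of that Seurat version, and the cluster column reads KO in every row. Shares are a fraction per gene in the authors' deposited table, printed here as percent. Each raw p-value was multiplied by 2000 to give the adjusted p-value in the authors' deposited table, so a Bonferroni adjustment over 2000 features was taken. If cells were the replicates, these p-values do not measure the spread between libraries.

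Members were selected by symbol and grouped by family number, and counts and medians were set beside those of all 1802 listed genes with pandas 2.3.3. The 2 centrings used the median of all listed genes and that of each of 10 bins of the WT share. Positions came from GENCODE vM21 and promoters from RefSeq, which held 29 of the 36 members. Named genes are the members, with values for each, and listed genes of 6 pathway lists; some genes that this rule selects are not reported here, though counts and medians include them. The members and lists were chosen with earlier results of these data known, and the cargo classes after their values were seen. The Benjamini-Hochberg adjustment and the bins were tested on simulated data and the grouping on a few symbols, but the counting of members was not tested. Comparison of protein sequences was planned and not run.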

Additional observations from a re-analysis of the deposited data

How the results depend on the processing

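No paired analysis was possible because the table holds no value per library, and for the same reason the planned fits per library with edgeR or DESeq2 and those leaving out a replicate were not run. Counts of members called at an adjusted p under 0.001 or with a share of at least 25% stayed within 1.5 times. Counts with Benjamini-Hochberg adjustment over the listed genes could not change, since all of these genes had a raw p under 0.01. The count of lower members went from 9 to 16 when centred on the median of all listed genes and to 17 when centred within 10 bins of the WT share, by the construction of these settings. Centred on the median of all listed genes, the medians were 0.00761 (amino acid and neurotransmitter), -0.0120 (glucose and lactate), 0.0120 (ion exchange) and -0.00367 (other, reversed). Centred within bins they were 0.00339, -0.0199, 0.0142 and -0.00139 (other, reversed). With the minimum share they were -0.00414 for glucose and lactate and 0.0335 for ion exchange, and with Slc3a2 moved to the amino acid group 0.0182 there and 0.00456 for other families. Centred on the median of all listed genes, 7 members changed sign, namely Slc6a11 (-0.000282), Slc6a20b (-0.00522), Slc16a9 (-0.00751), Slc18a2 (-0.00133), Slc39a1 (-0.00367), Slc15a2 (-0.00729) and Slc22a8 (-0.00819). Within bins 8 did, namely Slc6a13 (-0.00485), Slc7a2 (-0.00292), Slc7a5 (-0.00192), Slc6a20b (-0.00803), Slc5a7 (-0.00110), Slc18a2 (-0.00414), Slc15a2 (-0.00139) and Slc22a8 (-0.00847). The other members kept their direction under these settings. Depth is unknown, so what it limits cannot be stated.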
